A study of Mus musculus with 24 samples.

Results

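Serpins are a family of protease inhibitors, and 40 serpin genes were measured in mouse lung among 18193 genes that had a probe set naming a single gene. A gene was a member where its symbol began with Serpin, a clade letter from a to i and a digit, and 56 single-gene probe sets met that rule. Where a gene had several probe sets, it was described by the one with the highest mean intensity over the 12 samples. The members comprised 14 genes of clade A, 18 of clade B, 2 each of clades F and I, and 1 each of clades C, D, G and H. Clade E genes were not analysed here. All 40 symbols were found in the RefSeq mouse gene table (GRCm38.p6).

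The study compared lung RNA of mice lacking interleukin 13 (IL-13 KO) with that of wild-type mice (WT), after HDM or after PBS. HDM is the usual abbreviation for house dust mite, an airborne allergen, and PBS for phosphate-buffered saline, and IL-13 is a type 2 cytokine that drives mucus production in allergic airways. The 4 groups were WT HDM, WT PBS, KO HDM and KO PBS, with 3 samples each, and every sample was hybridised to 1 set A array and 1 set B array. The sources used here do not give the dose, route or schedule, the strain, age or sex of the mice, or the part of the gene deleted in the IL-13 KO. Nothing in the labels says that samples came from separate animals, so each p-value reflects only how these samples scattered, which may be technical.

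A serpin offers its target protease a bait loop, and after cleavage of that loop the enzyme is trapped in a covalent complex, so that each inhibitor molecule is used once. Clade A holds mostly secreted proteins of plasma, such as the inhibitors of neutrophil elastase, while clade B serpins act mainly inside cells against granzymes, cathepsins and other proteases that leak from granules and lysosomes. Other clades hold the inhibitors of thrombin, plasmin and the complement protease C1s. A few members inhibit nothing and serve as chaperones, hormone carriers or secreted signals. In the lung the family is best known for protecting the alveolar wall from neutrophil elastase.

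The values were intensities that the authors had scaled to a common trimmed mean on every array. Differences were tested on log2(intensity + pseudocount), a scale that understates the change of dim genes, with limma and with p-values adjusted (Benjamini-Hochberg) over all 31496 probe sets that passed a filter on low values. A call means an adjusted p under 0.05. The filter lay at an intensity of 32.0 on set A and 39.1 on set B, as a mean on the log2 scale. Of the 40 genes, 19 passed it: 6 of clade A, 8 of clade B, both of clade F, and the single members of clades D, G and H. Serpinc1, with a mean over the samples of 32.1, and Serpina9, with 38.4, did not.

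The samples bore out their label as lung, since the summed intensity of 13 lung epithelial markers was at least 39381 in every sample. The Il13 probe set lay under the filter, with 8.71, 13.6 and 15.5 in KO HDM lungs against 29.9, 16.0 and 15.5 in WT HDM lungs, and 3.30, 9.45 and 8.66 in KO PBS lungs against 4.65, 12.1 and 5.05 in WT PBS lungs. These low values did not separate the genotypes, and whether the probe set lies in the deleted part is unknown. WT HDM sample 2 and WT PBS sample 2 stood apart from the other 10 samples. Their 10 squamous and basal epithelial markers summed to 9247 and 7045, against 366 to 697 elsewhere, and their 12 skeletal muscle markers to 7475 and 3602. WT HDM sample 1 also had raised muscle transcripts, with a sum of 2135. On set A the 5′ actin signal over the 3′ one, a sign of RNA integrity, was lowest in WT PBS sample 2 (0.409) and KO HDM sample 1 (0.464). All KO HDM samples (0.464, 0.656 and 0.610) lay below all KO PBS samples (0.854, 0.748 and 0.797) in this ratio. The HDM comparison in KO was thus also one between samples of different actin ratio. On set B the KO HDM ratios were 0.428, 0.612 and 0.570, against 0.897, 0.610 and 0.754 in KO PBS. In such bulk samples, fewer cells of a type and less RNA per cell cannot be told apart.

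Promoter sequences are shown for 5 members: the 4 that were called after HDM and have an entry in the RefSeq promoter table (GRCm38.p6), and Serpinb2, a gene under the filter whose values are given further on. Each runs from 250 bases before to 50 bases after the annotated start, 5′ to 3′ on the gene's strand, and capitals mark matches to the motifs searched.
Serpina3n, chr12:104406458-104406757, plus strand: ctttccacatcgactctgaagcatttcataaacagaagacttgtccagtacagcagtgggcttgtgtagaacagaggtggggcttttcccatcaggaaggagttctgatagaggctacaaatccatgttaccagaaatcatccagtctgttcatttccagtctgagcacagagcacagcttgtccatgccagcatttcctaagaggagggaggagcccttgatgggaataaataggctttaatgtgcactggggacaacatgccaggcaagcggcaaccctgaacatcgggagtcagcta
Serpinb6b, chr13:32965011-32965310, plus strand: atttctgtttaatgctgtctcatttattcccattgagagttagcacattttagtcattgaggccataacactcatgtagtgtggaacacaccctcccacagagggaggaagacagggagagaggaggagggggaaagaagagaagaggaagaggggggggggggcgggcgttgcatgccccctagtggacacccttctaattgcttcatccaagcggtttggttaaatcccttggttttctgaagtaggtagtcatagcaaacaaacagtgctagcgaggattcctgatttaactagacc
Serpind1, chr16:17331121-17331420, plus strand: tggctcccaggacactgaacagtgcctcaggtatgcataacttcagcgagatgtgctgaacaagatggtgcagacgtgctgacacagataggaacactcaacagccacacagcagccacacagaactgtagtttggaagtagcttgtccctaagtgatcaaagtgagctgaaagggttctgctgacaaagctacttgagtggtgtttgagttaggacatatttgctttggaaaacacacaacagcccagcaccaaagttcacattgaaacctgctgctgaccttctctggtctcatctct
Serpinf1, chr11:75422574-75422873, minus strand: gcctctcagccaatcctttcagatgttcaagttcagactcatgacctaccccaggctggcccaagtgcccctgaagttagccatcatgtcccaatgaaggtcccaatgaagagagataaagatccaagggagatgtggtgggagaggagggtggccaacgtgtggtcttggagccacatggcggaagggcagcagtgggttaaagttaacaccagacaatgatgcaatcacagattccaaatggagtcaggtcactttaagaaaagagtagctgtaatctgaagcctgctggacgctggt
Serpinb2, chr1:107511173-107511472, plus strand: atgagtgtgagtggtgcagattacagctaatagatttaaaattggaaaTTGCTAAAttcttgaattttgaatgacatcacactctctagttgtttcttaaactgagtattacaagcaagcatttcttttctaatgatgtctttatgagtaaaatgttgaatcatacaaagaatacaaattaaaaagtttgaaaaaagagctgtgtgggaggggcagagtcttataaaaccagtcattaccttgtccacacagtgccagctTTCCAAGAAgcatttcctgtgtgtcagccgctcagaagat
The motifs searched on both strands were TTCNNNGAA (STAT factors), the STAT6 form of that motif with 1 more base between TTC and GAA, the NF-kB motif (GGGA, any base, TTTCC) and TTGCNNAA (C/EBP). No hit of one overlapped another in these windows. In Serpinb2, TTCCAAGAA matched the STAT motif at position 11, counting the start base as 1, and TTGCTAAA matched the C/EBP motif 202 bases before it. The letters of the 4 motifs were not found in the Serpina3n, Serpinb6b, Serpind1 and Serpinf1 windows. Of the 40 members, 34 had an entry, with 40 promoters in all, since some genes have several annotated starts. Of these 40 promoters 8 held the STAT motif, 6 the STAT6 form, none the NF-kB motif and 10 the C/EBP motif. Some windows of the same gene overlap, so the same site can be counted again. By gene, 6 of the 34 members held the STAT motif, 6 the STAT6 form, none the NF-kB motif and 8 the C/EBP motif. Among all 32841 mouse promoters in the table, 8.30%, 6.95%, 0.411% and 10.8% held these motifs in the same order. A match is a run of letters and was not tested as a binding site.

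After HDM, 4 of the 19 tested serpin genes were called higher and none lower in wild-type lungs. Over all 14473 genes tested, 5.38% were called higher and 5.15% lower in that comparison. In KO lungs 3 were called higher and 1 lower, against 5.7% and 5.3% of all genes. Serpina3n, Serpina10 and Serpind1 were called higher in both genotypes, Serpinb6b was called higher after HDM in wild type, and Serpinf1 lower after HDM in KO. Serpind1 passed the filter through its HDM groups, so it could hardly be tested without differing. Without it, 3 of 18 genes were called higher in wild type and 2 of 18 in KO. At an unadjusted p under 0.05 there were 7 of the 19 genes in wild type and 5 in KO. The share of all genes at that unadjusted threshold was not worked out, so these counts say nothing particular about serpins. Without WT HDM sample 2 and WT PBS sample 2, 1 gene (Serpina3n) was called in wild type and 2 (Serpina3n and Serpina10) in KO. The median log2 fold change of the 19 was 0.23 in wild type and 0.06 in KO, beside -0.00 and 0.01 over all genes.

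**Figure D1:**
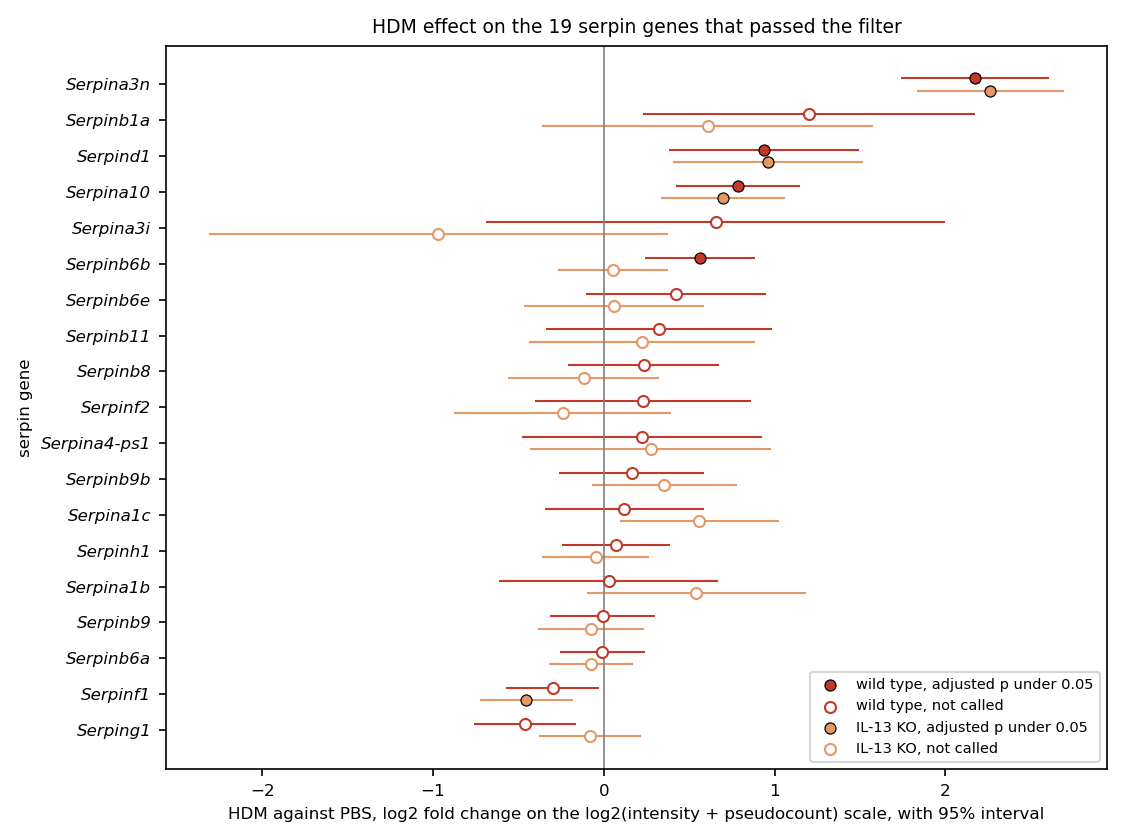
Each row is 1 of the 19 serpin genes that passed the filter, and the horizontal axis is the log2 fold change of HDM against PBS on the log2(intensity + pseudocount) scale with its 95% interval, in wild type (red, upper) and IL-13 KO (orange, lower). Filled points were called, and Serpina3n lies farthest from 0 in both genotypes, at 2.18 and 2.26.

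Serpina3n, a mouse counterpart of human alpha-1-antichymotrypsin that inhibits granzyme B and leukocyte elastase, rose the most. Its probe set gave 700.5, 612 and 667 in WT HDM lungs against 109.8, 120.3 and 209 in WT PBS lungs. In KO HDM lungs it gave 529, 557 and 487, against 108, 114 and 90.6 in KO PBS lungs. Every HDM sample lay above every PBS sample of either genotype. The ratio of group means was 4.51 in wild type (660.0 ± 44.5 against 146 ± 54.7, SD, n = 3 each) and 5.04 in KO (524 ± 35.5 against 104 ± 11.9). By limma the log2 fold change was 2.18 ± 0.20 (SE, adjusted p = 4.2e-05) in wild type and 2.26 ± 0.20 (adjusted p = 3.65e-05) in KO.

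The 2 HDM effects on Serpina3n differed by 0.09 on the log2 scale, with a 95% interval from -0.52 to 0.70 and an adjusted p of 0.992 for the interaction by limma, which is the HDM effect in KO minus that in wild type. The 3 KO HDM samples lay below the 3 WT HDM samples, but that difference of -0.33 (interval -0.76 to 0.10) had an adjusted p of 0.727 by limma. Summed macrophage markers rose with the gene, with 17385 to 22791 in WT HDM and 3589 to 5616 in WT PBS lungs, and 16771 to 17653 in KO HDM and 3622 to 5231 in KO PBS lungs. Of the 14 macrophage markers, 13 were called higher in each genotype, and their part in the Serpina3n difference was not tested. The mouse genome holds a cluster of closely related Serpina3 genes, and cross-hybridisation among them was not tested either.

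Serpina10 encodes the protein Z-dependent inhibitor, which with protein Z blocks coagulation factor Xa, and it is made mainly by the liver. Its probe set gave 118, 117 and 127 in WT HDM lungs against 72.7, 56.3 and 73.3 in WT PBS lungs. It gave 108, 113 and 111 in KO HDM lungs against 65.5, 73.4 and 58.2 in KO PBS lungs. HDM and PBS samples did not overlap in either genotype, and the 6 HDM samples lay within a narrow band. The ratio of means was 1.79 in wild type and 1.68 in KO, with log2 fold changes of 0.79 ± 0.17 (SE, adjusted p = 0.0124) and 0.70 ± 0.17 (adjusted p = 0.0223) by limma. The interaction was -0.09, with an interval from -0.60 to 0.42.

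Serpind1 encodes heparin cofactor II, a plasma inhibitor of thrombin that works with heparin or dermatan sulfate. Its probe set gave 72.0, 74.1 and 42.6 in WT HDM lungs against 31.4, 32.1 and 23.4 in WT PBS lungs. In KO HDM lungs it gave 59.3, 70.5 and 65.1, against 20.8, 38.3 and 33.2 in KO PBS lungs. The groups did not overlap, although WT HDM sample 3 lay near the highest PBS values. Means of 29.0 in WT PBS and 30.7 in KO PBS lungs were below the filter level, so the gene passed the filter through its HDM groups. The log2 fold change was 0.94 ± 0.26 (SE, adjusted p = 0.044) in wild type and 0.96 ± 0.26 (adjusted p = 0.0368) in KO by limma, and the interaction was 0.03 (-0.76 to 0.81).

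The calls of Serpina10 and Serpind1 depended on the samples, and those of Serpind1 stood near the threshold. Without the 2 samples that carried squamous transcripts, the wild-type adjusted p by limma was 0.186 for Serpind1 and 0.0986 for Serpina10, while the log2 fold changes were 0.88 and 0.69. Without the 3 samples that carried skeletal muscle transcripts, the wild-type effect on Serpind1 was 0.54 (adjusted p = 0.539, limma). The wild-type call of Serpina10 was also lost without WT HDM sample 3 or WT PBS sample 2, and its KO call without any single KO HDM sample or KO PBS sample 1 or 3 (adjusted p up to 0.0863, limma). For Serpind1 the wild-type call was lost without WT HDM sample 1 or 2, any single WT PBS or KO HDM sample, or KO PBS sample 3 (adjusted p up to 0.145, limma). Its KO call was lost without any single KO HDM sample or KO PBS sample 1 or 3 (adjusted p up to 0.139, limma). Because both genes are known from the liver, hepatocyte markers were read beside them. None of the 6 tested hepatocyte markers was called in either direction in either genotype. The 13 markers on the arrays summed to 518 to 545 in WT HDM and 463 to 659.9 in WT PBS lungs, and to 544 to 575 in KO HDM and 397 to 541 in KO PBS lungs. Of the 13, the fibrinogen chain gene Fgb was at most 1.76 in any sample, the albumin gene Alb lay between 30.6 and 97.3, and the gene with the highest values, Apoh, between 106 and 179. Whether liver-derived RNA had a part in these values was not tested.

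**Figure D2:**
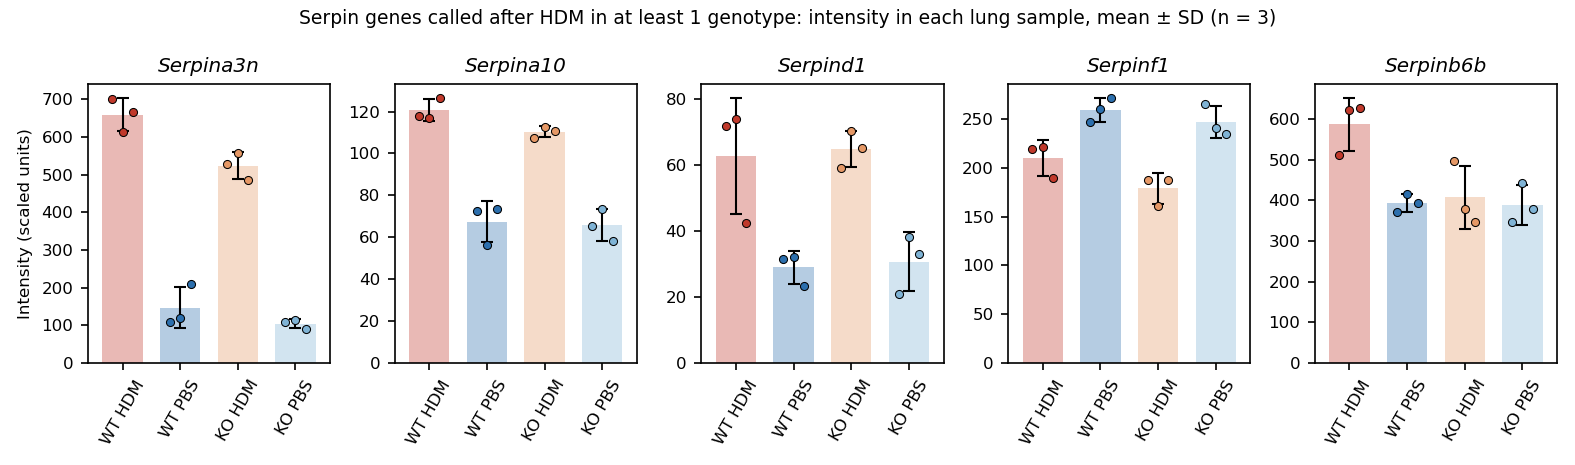
Intensity in scaled units (vertical axis, from 0) of the 5 serpin genes called after HDM, with 1 point per lung sample and bars giving the mean ± SD of 3 samples for WT HDM, WT PBS, KO HDM and KO PBS. Serpina3n shows the widest gap between HDM and PBS, and Serpinb6b averaged 407 in KO HDM and 588 in WT HDM lungs, a difference between genotypes that did not pass the test.

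The remaining clade A genes that passed the filter were not called. Serpina1b and Serpina1c belong to the mouse family of alpha-1-antitrypsins, the plasma inhibitors of neutrophil elastase, and the Serpina1b probe set is of the kind whose probes can match related genes. Their log2 fold changes were 0.54 (interval -0.10 to 1.18) and 0.56 (0.09 to 1.03) in KO lungs, with adjusted p-values of 0.303 and 0.139 by limma. In wild type they were 0.03 and 0.12. Serpina3i varied widely, with 56.5, 23.2 and 165 in WT HDM lungs and 33.3, 83.3 and 14.1 in WT PBS lungs. The pseudogene Serpina4-ps1 had estimates of 0.22 and 0.27 in the 2 genotypes with no call.

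Among the 8 clade B genes that passed the filter, Serpinb6b was the only one called. It is a mouse paralogue of the gene for a cytosolic inhibitor of cathepsin G in human leukocytes. Its probe set gave 513, 622 and 629 in WT HDM lungs against 373, 415 and 394 in WT PBS lungs, and 496, 379.6 and 346 in KO HDM lungs against 346, 442 and 379.8 in KO PBS lungs. The WT HDM samples lay above all 9 others, and the KO groups overlapped. The log2 fold change was 0.56 ± 0.15 (SE, adjusted p = 0.0375) in wild type and 0.05 ± 0.15 (adjusted p = 0.877) in KO by limma. The wild-type call was lost without WT HDM sample 2 or 3, any single WT PBS sample, KO HDM sample 2 or KO PBS sample 3 (adjusted p up to 0.133, limma).

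The difference between those 2 effects was -0.51 ± 0.21 (SE), with an interval from -0.97 to -0.05, an unadjusted p of 0.0317 and an adjusted p of 0.854 by limma, so a genotype dependence did not pass the test. After HDM the gene was lower in KO by 0.53 on the log2 scale in the estimate, with an adjusted p of 0.231 by limma. Smooth muscle and goblet cell markers were also lower in KO HDM than in WT HDM lungs. The 10 smooth muscle markers summed to 2755 to 3037 in KO HDM and 7048 to 8049.9 in WT HDM lungs, and the 9 goblet markers to 2145 to 2627 in KO HDM and 7989 to 9278 in WT HDM lungs. Other lists went either way in that comparison. The median log2 difference was 0.53 for T cell, 0.54 for plasma cell and 0.43 for mast cell and basophil markers. It was 0.17 for neutrophil, -0.17 for macrophage and -0.11 for B cell markers. The part of any of these cell types in the Serpinb6b values was not tested.

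Of the relatives of Serpinb6b, Serpinb6a and Serpinb6e gave strong signal and no call, and Serpinb6c lay under the filter with a mean of 11.7. Serpinb6a, the mouse gene for the cathepsin G inhibitor itself, gave 623, 629.6 and 624 in WT HDM against 702, 652 and 544 in WT PBS lungs, and 718, 697 and 624 in KO HDM against 746, 657 and 742 in KO PBS lungs. Its groups overlapped, and the log2 fold changes were -0.01 (interval -0.26 to 0.24) and -0.07 (-0.32 to 0.17) in wild type and KO.

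Serpinb6e, whose probe set can match related genes, gave 897, 1117 and 1205 in WT HDM against 1052, 528 and 889.8 in WT PBS lungs, and 983, 929 and 623 in KO HDM against 811, 672 and 918 in KO PBS lungs. The samples overlapped in both genotypes, and the wild-type log2 fold change of 0.42 ± 0.24 had an adjusted p of 0.374 by limma. Serpinb9 encodes the inhibitor with which lymphocytes and dendritic cells protect themselves from granzyme B. It gave 498, 548 and 393 in WT HDM against 459, 518 and 458 in WT PBS lungs, and 347, 452 and 419 in KO HDM against 425, 394 and 459 in KO PBS lungs. The groups overlapped, with log2 fold changes of -0.01 (-0.32 to 0.30) and -0.07 (-0.38 to 0.23), and its second probe set gave -0.15 and -0.03.

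Serpinb1a encodes an intracellular inhibitor of neutrophil elastase, cathepsin G and proteinase 3. It gave 41.4, 48.7 and 91.1 in WT HDM against 37.7, 30.3 and 6.18 in WT PBS lungs, and 80.1, 52.7 and 95.1 in KO HDM against 63.5, 29.9 and 50.9 in KO PBS lungs. The wild-type groups did not overlap, but WT PBS sample 3 was far below the others, and the log2 fold change of 1.20 ± 0.45 had an adjusted p of 0.14 by limma. Serpinb8, Serpinb9b and Serpinb11 had estimates of 0.16 to 0.32 in wild type and -0.12 to 0.36 in KO, with no call.

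Of the remaining clades, Serpinf1 encodes pigment epithelium-derived factor, a secreted serpin that inhibits no protease and restrains blood vessel growth. Its brighter probe set gave 219.7, 221 and 189 in WT HDM against 247, 261 and 271 in WT PBS lungs, and 188, 161 and 188 in KO HDM against 266, 241 and 235 in KO PBS lungs. The HDM samples lay below the PBS samples in each genotype. The log2 fold change was -0.30 ± 0.12 (SE, adjusted p = 0.196) in wild type and -0.45 ± 0.12 (adjusted p = 0.0423) in KO by limma, and the 2 effects differed by -0.15 (interval -0.54 to 0.23). The KO call was lost without any single KO sample, WT HDM sample 1 or 2, or WT PBS sample 2 (adjusted p up to 0.144, limma).

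The dimmer Serpinf1 probe set made the call in the other genotype. It gave 76.8, 29.2 and 11.4 in WT HDM against 144, 126 and 164 in WT PBS lungs, and 69.8, 97.7 and 28.2 in KO HDM against 145, 132 and 124 in KO PBS lungs. The HDM samples were lower and more scattered. By limma its log2 fold change was -1.98 ± 0.48 (adjusted p = 0.0247) in wild type and -1.10 ± 0.48 (adjusted p = 0.195) in KO. Mesothelial markers moved with the gene, since 3 of 5 tested were called lower in each genotype, as did endothelial markers, of which 10 of 11 were called lower and 1 was called higher in wild type, and 8 were called lower in KO. Fibroblast markers moved in both directions: of 11 tested, 2 were called higher and 1 lower in wild type, and 4 higher and 3 lower in KO. The part of these cell types in the Serpinf1 difference was not tested.

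Serping1 encodes C1 inhibitor, which controls the complement proteases C1r and C1s, plasma kallikrein and factor XII. It gave 1396, 1178 and 1103 in WT HDM against 1746, 1639 and 1666 in WT PBS lungs, and 1649.8, 1495 and 1534 in KO HDM against 2021, 1364 and 1617 in KO PBS lungs. The WT HDM samples lay below the WT PBS samples, while the KO groups overlapped. The wild-type log2 fold change of -0.46 ± 0.14 (SE, interval -0.76 to -0.16) had an adjusted p of 0.0632 by limma, just outside the threshold, and the KO estimate was -0.08. It passed without WT HDM sample 1, KO PBS sample 1 or KO PBS sample 2 (adjusted p down to 0.0338, limma). The interaction was 0.38 (-0.04 to 0.81), with an adjusted p of 0.884 by limma.

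Serpinh1 encodes HSP47, a chaperone of procollagen in the endoplasmic reticulum that inhibits no protease. It gave 1038, 1015 and 923 in WT HDM against 795, 1047 and 1004 in WT PBS lungs, and 971, 963 and 705 in KO HDM against 992, 857 and 858 in KO PBS lungs. The groups overlapped, with log2 fold changes of 0.07 (interval -0.24 to 0.39) and -0.05 (-0.36 to 0.27). Genes for collagens and collagen assembly were read beside it, a list in which only the collagen chains are its clients. Of 25 tested, 8 were called higher and 2 lower in wild type, and 3 higher and 3 lower in KO. These counts were not stable, with 1 to 10 genes called in wild type and 1 to 6 in KO over 23 alternatives. Among the called genes Col6a2 rose by 0.96 ± 0.11 and Col5a2 by 0.86 ± 0.12 (log2, SE) in wild type. In KO HDM lungs Col6a2 was lower than in WT HDM lungs by 0.87 on the log2 scale (adjusted p = 0.00424, limma). Serpinf2, the gene for the plasmin inhibitor alpha-2-antiplasmin, had estimates of 0.23 in wild type and -0.24 in KO with no call.

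**Figure D3:**
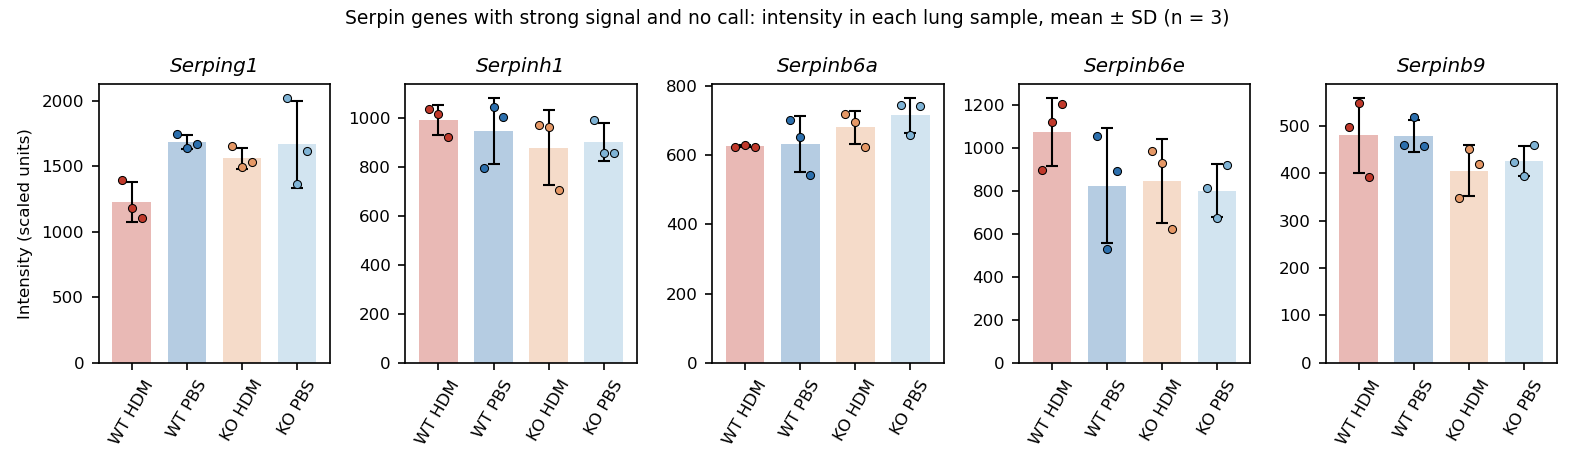
Intensity in scaled units (vertical axis, from 0) of the 5 serpin genes with strong signal and no call, with 1 point per lung sample and bars giving the mean ± SD of 3 samples in each group. Only for Serping1 do the WT HDM samples (1103 to 1396) lie wholly apart from the WT PBS samples (1639 to 1746).

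No serpin gene was called between KO and wild type, either after HDM or after PBS, and none was called for the interaction. Over all genes 0.677% were called after HDM, 0.0207% after PBS and 0.159% for the interaction. The smallest adjusted p among the 19 genes by limma was 0.231 after HDM, 0.75 after PBS and 0.854 for the interaction. At an unadjusted p under 0.05 there were 3 genes after HDM (Serpinb6b, Serping1 and Serpinf2), 0 after PBS and 1 for the interaction (Serpinb6b). For these comparisons too, the share of all genes at that threshold was not worked out. Serpinf2 gave 53.9, 58.7 and 42.0 in KO HDM lungs against 79.6, 93.8 and 85.3 in WT HDM lungs, a log2 difference of -0.68 (interval -1.32 to -0.05) with an adjusted p of 0.542 by limma. The HDM effects in the 2 genotypes of the genes called in both can be read side by side: 2.18 and 2.26 for Serpina3n, 0.79 and 0.70 for Serpina10, 0.94 and 0.96 for Serpind1.

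The other 21 genes lay under the filter, and 3 of these, chosen after their values were seen, were high in single samples. Serpinb12, an intracellular serpin of epithelia, gave 31.9, 1207 and 31.9 in WT HDM lungs against 7.42, 523 and 22.9 in WT PBS lungs, and between 1.07 and 23.7 in the KO lungs. Serpinb3a, a mouse counterpart of the human squamous cell carcinoma antigens, gave 15.3, 163 and 18.4 in WT HDM against 27.3, 183 and 24.9 in WT PBS lungs. Serpinb5, which encodes maspin, a non-inhibitory serpin of squamous and glandular epithelium, gave 8.42, 51.4 and 8.70 against 6.35, 36.9 and 7.30 in those groups. In all 3 genes the high values were those of WT HDM sample 2 and WT PBS sample 2. The squamous keratin genes Krt4 (6612 and 5239) and Krt13 (1484 and 1067) were high in the same samples, with at most 301 and 38.0 in the others. Not every probe set of these genes showed the pattern. The second Serpinb12 probe set gave 7.23 to 18.6 over all samples. Of the other 3 Serpinb5 probe sets, 1 had 24.0 and 19.4 in those samples against at most 15.7 elsewhere, 1 had 16.1 and 18.7 against at most 13.7, and 1 was highest in KO HDM sample 1, at 16.4.

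**Figure D4:**
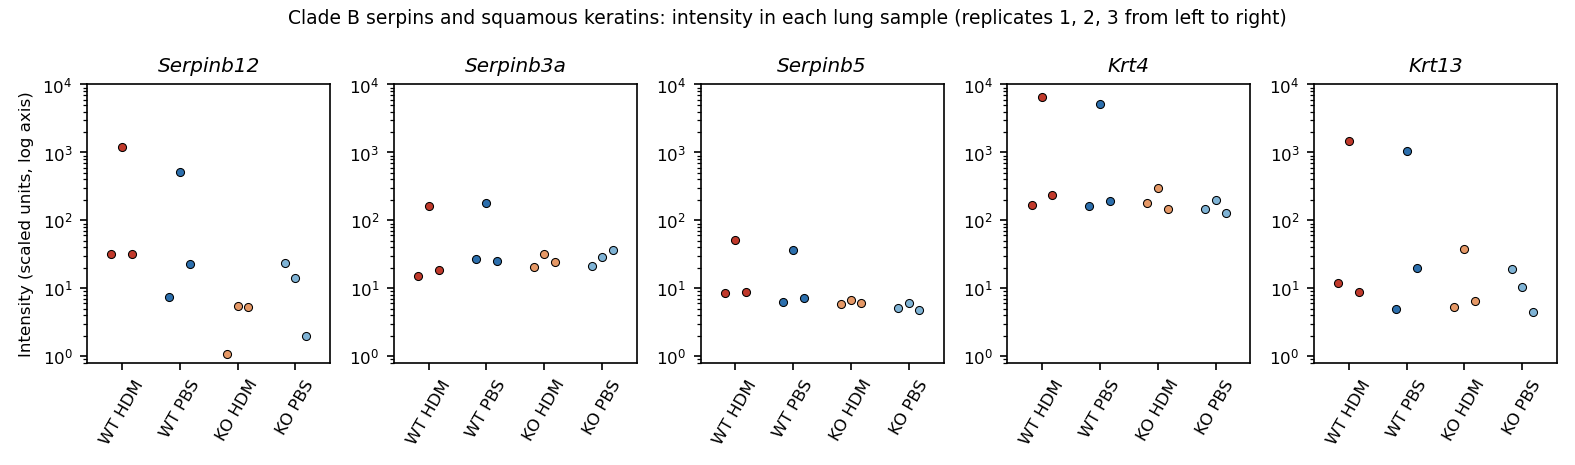
Intensity in scaled units (log axis) of Serpinb12, Serpinb3a, Serpinb5 and the squamous keratin genes Krt4 and Krt13, with 1 point per lung sample, replicates 1 to 3 from left to right within each group. In every panel replicate 2 of WT HDM and replicate 2 of WT PBS stand above the other samples (Krt4 6612 and 5239, against at most 301).

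With the filter removed, 2 of those 21 genes were called after HDM. Serpinb2, which encodes plasminogen activator inhibitor 2 and is induced in activated macrophages, gave 26.1, 21.2 and 15.1 in WT HDM against 2.64, 10.1 and 1.09 in WT PBS lungs, and 14.7, 13.5 and 14.8 in KO HDM against 7.94, 8.60 and 6.68 in KO PBS lungs. All HDM samples lay above all PBS samples. By limma its log2 fold change was 1.33 ± 0.26 (SE, adjusted p = 0.012) in wild type and 0.54 (adjusted p = 0.302) in KO, and the interaction of -0.79 had an adjusted p of 0.895. Serpinb1b, a paralogue of Serpinb1a, gave 3.05, 3.43 and 2.76 in KO HDM against 13.3, 17.1 and 12.4 in KO PBS lungs, a log2 fold change of -1.08 (adjusted p = 0.037, limma). Values this low are near the pseudocounts of 6.82 and 10.7, where intensity is mostly background.

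The other 16 genes under the filter had mean intensities from 6.33 to 38.9 and no call. Among them were the genes for antithrombin (Serpinc1), protein C inhibitor (Serpina5), corticosteroid-binding globulin (Serpina6), thyroxine-binding globulin (Serpina7), vaspin (Serpina12) and neuroserpin (Serpini1). A further 3 probe sets named several serpin genes at once and were not members. The one for Serpinb9e, Serpinb9f, Serpinb9g and Serpinb9h passed the filter, with log2 fold changes of 0.29 in wild type and 0.31 in KO and no call.

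Genes of the protease systems around serpins were described from lists, and not every listed gene encodes a serpin target. The counts after HDM in these lists stand beside shares over all genes of 5.38% higher and 5.15% lower in wild type. In KO those shares were 5.7% and 5.3%. Of 6 tested genes for granule proteins of neutrophils and mast cells, 3 were called higher in wild type and 5 in KO. Those named here are mast cell genes. The mast cell protease gene Mcpt2 rose by 2.62 ± 0.26 and 3.93 ± 0.26 (log2, SE) in wild type and KO, the chymase gene Cma1 by 0.92 and 1.34, and the tryptase gene Tpsb2 by 1.56 and 2.91. The carboxypeptidase gene Cpa3 rose by 1.64 in KO. Of 8 tested mast cell and basophil markers, a list that shares genes with the proteases, 3 were called higher and 1 lower in wild type, and 4 higher and 1 lower in KO. Of 4 tested granzymes, none was called in wild type and 1 in KO, where Gzmb, the target of Serpina3n and Serpinb9, rose by 1.25 ± 0.21 (adjusted p = 0.00335, limma). Its wild-type estimate was 0.71 (adjusted p = 0.064, limma).

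Of 13 lysosomal cathepsin genes, 10 were called higher in wild type and 9 in KO, with a median log2 fold change of 0.95 and 0.81. The collagen-degrading cathepsin gene Ctsk rose by 2.55 ± 0.17 and 1.62 ± 0.17, Ctss by 1.54 and 1.60, and Ctsb by 1.04 and 1.09 in wild type and KO (log2, SE). Macrophage markers, given above, moved with them, and their part was not tested. Of 12 coagulation genes, 3 were called higher in wild type, and 3 higher and 2 lower in KO. F10, the gene for the factor that Serpina10 inhibits, gave 189, 205 and 294 in WT HDM against 32.2, 41.7 and 46.1 in WT PBS lungs, and 118, 134 and 146 in KO HDM against 42.9, 37.1 and 41.4 in KO PBS lungs. Its log2 fold change was 2.32 ± 0.20 in wild type and 1.56 ± 0.20 in KO, with adjusted p-values of 3.14e-05 and 0.000675 by limma. The factor VII gene F7 rose by 1.58 and 1.01 and the factor V gene F5 by 1.39 and 1.26. The tissue factor gene F3 fell by 1.03 in KO, and in HDM lungs it was lower in KO than in wild type by 1.36 on the log2 scale (adjusted p = 0.00579, limma).

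Of 9 tested genes in the complement list, 4 were called higher in wild type and 5 in KO. Among them C1qa, C1qb and C1qc encode the recognition chains of C1 rather than the proteases that Serping1 inhibits, and rose by 2.05 to 2.12 in wild type and 2.05 to 2.41 in KO (log2). Cfi, the gene for factor I, rose by 1.09 in wild type, and Cfb, for factor B, by 1.17 in KO. Of 8 tested genes of plasminogen activation and its surroundings, none was called higher and 2 lower in each genotype. These were the endothelial receptor gene Thbd, with -0.65 and -0.78, and the vitronectin gene Vtn, with -0.59 and -0.67. Over 23 alternatives 0 to 2 genes of this list were called in wild type and 1 to 3 in KO, and 19 of the 23 gave fewer than 2 in wild type. Of 12 membrane and epithelial serine proteases, none was called in wild type and 3 were lower in KO, where Htra1 fell by 0.51, Prss23 by 0.84 and Tmprss2 by 0.59. The KO count was 0 to 4 over 23 alternatives.

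Protease inhibitors outside the serpin family moved in both directions. Of 26 tested, 5 were called higher and 4 lower in wild type, and 7 higher and 3 lower in KO. Slpi, which inhibits neutrophil elastase like several serpins, rose by 2.26 ± 0.31 and 3.69 ± 0.31 in wild type and KO (log2, SE). Wfdc17 rose by 3.36 and 3.66, the metalloproteinase inhibitor gene Timp1 by 2.11 and 1.65, and the cathepsin inhibitor gene Cstb by 0.90 and 0.84. The inhibitor gene Tfpi2 was lower in KO than in wild type after HDM by 1.63 on the log2 scale (adjusted p = 0.00965, limma). The lists overlap in the cells they represent, and no list was tested as a set.

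**Figure D5:**
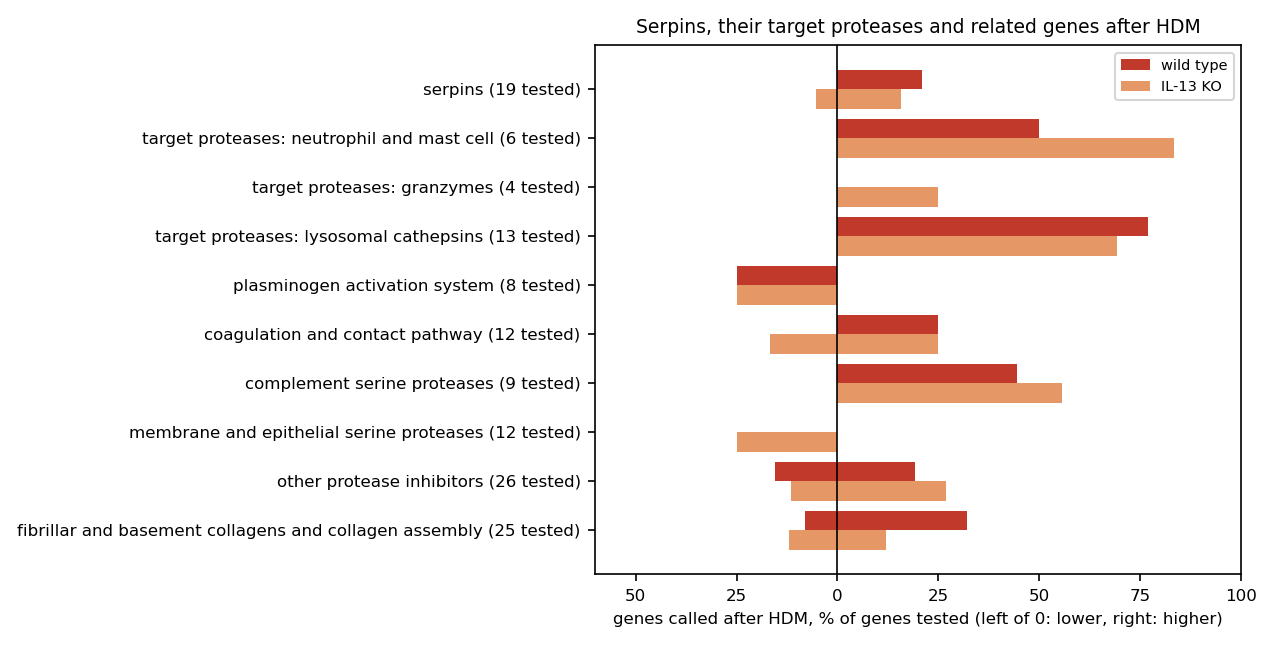
Horizontal bars give the share of tested genes called after HDM in each list (percent, higher to the right of 0 and lower to the left), in wild type (red) and IL-13 KO (orange). Serpins had 4 of 19 genes called higher in wild type, and lysosomal cathepsins 10 of 13. Over all genes tested, 5.38% were called higher and 5.15% lower in wild type, and 5.7% and 5.3% in KO. The lists labelled target proteases also hold genes that do not encode serpin targets.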

How the data were processed

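The authors deposited 1 linear intensity per probe set and array, and the sources used here do not name the software. Each array's mean after trimming 2% from each end was 150, and this scaling was kept. Median intensity was 69.5 to 77.7 over set A arrays and 83.5 to 93.7 over set B arrays, and the number of arrays limits the precision. Groups and replicates came from the sample titles, and gene names from GEO's platform annotation.

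Log2(intensity + pseudocount) used the 10th percentile of each set (6.82 and 10.7). On that scale, means below the 30th percentile of a set were filtered out, leaving 15838 of set A and 15658 of set B. One model of the 4 groups, with 8 residual degrees of freedom, was fitted in limma 3.58.1 (R 4.3.3) with a trended prior, and tested on simulated data. Named genes were all called members, members with a mean of at least 10 times the filter level, and up to 4 called genes per list. The members and lists were chosen with earlier results of these data known. Alternatives covered pseudocount, filter, quantile normalization, trend, replicate block, actin ratio, subsets of samples and single samples left out.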

Additional observations from a re-analysis of the deposited data

Results flagged for a closer look

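Serpinb2 lay under the filter on low values and so outside the main comparison. With the filter removed it was called higher in wild-type lungs after HDM, by 1.33 on the log2 scale (adjusted p = 0.012, limma), with 3 of 3 WT HDM samples (15.1 to 26.1) above the 3 WT PBS samples (1.09 to 10.1). Values this low are near the set A pseudocount of 6.82, where intensity is mostly background. Only calls toward higher values could be flagged, so Serpinb1b, called lower in KO without the filter, was not.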

How the results depend on the processing

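The HDM effect on Serpina3n was called under all 23 alternatives in each genotype, with log2 fold changes of 1.89 to 2.45 in wild type and 1.90 to 2.33 in KO. None of the serpin effects followed here changed direction. The count of 4 called genes in wild type became 1 without the 3 samples that carried skeletal muscle transcripts, 1 without the 2 that carried squamous transcripts (an alternative chosen after seeing the data) and 1 when only the groups compared were fitted, all with fewer samples. The count of 4 in KO became 2 with the actin ratio as a covariate and 2 without the squamous samples. With single samples left out, the counts were 1 to 5 in wild type, 1 to 4 in KO, and 0 to 0 between genotypes and for the interaction. The wild-type count was 1 without WT PBS sample 2, and the KO count was 1 without KO HDM sample 1, 2 or 3 or KO PBS sample 1 or 3. Serpina10 was called under 18 of 23 alternatives in each genotype, Serpinb6b in wild type under 11 of 23, Serpind1 under 6 of 22 in wild type and 14 of 22 in KO, and Serpinf1 in KO under 7 of 23. Serping1 in wild type was called under 6 of 23, among them quantile normalization (adjusted p = 0.0355, limma).

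With the replicate number as a block, 3 genes were called in each genotype. The adjusted p by limma under this block was 0.0592 for Serpinb6b and 0.0512 for Serpind1 in wild type, 0.0675 for Serpinf1 in KO and 0.0373 for Serping1 in wild type. Whether the numbers pair the samples was not settled. Deviations of same-numbered samples correlated at -0.09 to 0.17, with 1 of 18 pairs over 0.1. For samples of different number the range was -0.19 to 0.11, with 3 of 36 pairs over 0.1. With 3 samples in each group, such correlations cannot exclude that same-numbered samples were handled together. Signal near background limits the 21 genes under the filter. Of the other gene lists, counts moved by over 1.5 times under 19 of 23 alternatives for plasminogen activation and 10 of 23 for collagens in wild type. In KO they moved under 5 of 23 for each of these lists and 6 of 23 for membrane serine proteases. The lists of cathepsins, coagulation and complement genes stayed within 1.5 times under all 23 in both genotypes.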
